A study of Homo sapiens with 9 samples.

Results

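The genes of cholesterol synthesis, sterol sensing and sterol export were examined in RNA sequencing libraries of cells labelled BxPC3, a line named in the labels as pancreatic adenocarcinoma. The group holds 29 genes out of 56865 genes to which estimated reads were summed. They were chosen by name for their place in the pathway, but with earlier results of these data known. Of the 29, 28 passed the filter on low counts, as did 13914 genes in all. The one that did not was STARD4, a carrier of cholesterol between membranes, which was listed at 0 reads in all 9 libraries. A count of 0 allows up to 3 reads, or 0.107 to 0.125 CPM (reads of a gene in 1000000 reads of its library), which covers counting error only.

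The libraries fall into 3 groups of 3, treated with vehicle (DMSO), with MS172 or with PK9328, and all carry the genotype label p53Y220C/-. PK9328 is known as a small molecule that binds the Y220C mutant of the tumour suppressor p53. The compounds named in the treatment protocol, at 5 µM over 6 h, are PK9328 and MS78, so the dose and time of MS172 rest on a protocol written with another compound name. Cells were grown in RPMI with fetal bovine serum, which supplies lipoprotein cholesterol, and libraries were made from polyadenylated RNA. Whether replicates of a group came from separate cultures is not stated in the labels, and the p-values may therefore reflect technical spread alone.

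Depth was 24077353 to 28031886 estimated reads per library. The ductal and epithelial markers did not all match the label. EPCAM and CDH1, which define epithelial cells, and KRT7 stayed at or below 0.0745, 0.0417 and 0.103 CPM in every library, while with DMSO the means of KRT8, KRT18 and KRT19 were 732, 785 and 311 CPM. CLDN4 and MUC1, of the same list, were at 122 and 3.77 CPM. Among the mesenchymal genes, again with DMSO, VIM and COL1A2 stood at 9391 and 2416 CPM. The others of that list, COL1A1, FN1 and CDH2, were at 1.41, 0.667 and 0.0517 CPM. Members of each list thus differed widely. The cells are therefore called by their label only.

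Cells sense cholesterol in the membrane of the endoplasmic reticulum. When sterols are plentiful, the INSIG proteins hold the escort protein SCAP, and with it the transcription factor precursor SREBP2, in that membrane. When sterols are low, SCAP carries SREBP2 to the Golgi, where proteases release its active part, which turns on the genes of the mevalonate pathway and of the sterol pathway that follows it. INSIG1 is itself a target of SREBP2, and so part of a feedback loop. The liver X receptors (LXR) act on the other side. They are switched on by oxysterols and drive export of cholesterol through ABCA1 and ABCG1, and they induce MYLIP, a ubiquitin ligase that marks lipoprotein receptors for breakdown.

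The proximal promoters of 25 of the 29 genes were in the RefSeq table used here (GRCh38.p14), and those of ABCG1, ACAT2, FDFT1 and SQLE were not. The table holds 36 windows for these 25 genes, and the 1 nearest to the start of each gene's most abundant transcript was used. STARD4, at 0 reads, had no such transcript, so its window was taken without that rule. In windows from 250 bases before to 50 bases after the start, the NF-Y box CCAAT was found on either strand in 18 of 25 (72.0%), against 34.6% of 35116 windows in the table, and in 21 of all 36. A GC box (GGGCGG, the letters bound by Sp1) was found in 24 of 25 and in 31 of all 36, against 45.0%. The E-box CACGTG was found in 5 of 25 and in 6 of all 36, against 7.26%. The shares of the table count every window, not 1 for each gene. NF-Y and Sp1 are known to act beside SREBP2 on sterol promoters. The strict sterol regulatory element TCACNCCAC matched in 1 window, that of SREBF2 at position -133, against 1.13% of all promoters. The LXR element matched in 0 of 25 windows, against 0.0199%. These are matches of letters on both strands, motifs were free to overlap each other, and a match is not a bound site. The stretch of each window that lies before the annotated gene is shown for 6 genes. They are INSIG1, HMGCS1, MSMO1 and IDI1, which had the highest fold changes described below, LSS, an enzyme of the same pathway that was not called against DMSO, and ABCA1, which was called lower. Capitals mark CCAAT, or ATTGG where the box lies on the other strand.
INSIG1, chr7:155297628-155297775, plus strand: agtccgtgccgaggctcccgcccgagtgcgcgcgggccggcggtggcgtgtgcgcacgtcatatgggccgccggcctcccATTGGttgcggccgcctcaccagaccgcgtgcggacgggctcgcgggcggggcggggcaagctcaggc
HMGCS1, chr5:43313513-43313662, minus strand: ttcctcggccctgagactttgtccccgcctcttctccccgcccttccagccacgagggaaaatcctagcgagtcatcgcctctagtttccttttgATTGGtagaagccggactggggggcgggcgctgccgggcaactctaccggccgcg
MSMO1, chr4:165327419-165327622, plus strand: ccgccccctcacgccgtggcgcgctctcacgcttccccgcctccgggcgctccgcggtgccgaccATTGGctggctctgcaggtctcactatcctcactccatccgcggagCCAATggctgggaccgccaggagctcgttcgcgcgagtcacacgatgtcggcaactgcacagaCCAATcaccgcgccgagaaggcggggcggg
IDI1, chr10:1049171-1049369, minus strand: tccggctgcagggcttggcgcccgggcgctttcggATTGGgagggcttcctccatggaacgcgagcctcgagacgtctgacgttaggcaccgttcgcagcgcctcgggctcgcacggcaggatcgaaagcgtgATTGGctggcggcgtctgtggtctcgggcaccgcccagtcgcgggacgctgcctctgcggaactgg
LSS, chr21:46228825-46229024, minus strand: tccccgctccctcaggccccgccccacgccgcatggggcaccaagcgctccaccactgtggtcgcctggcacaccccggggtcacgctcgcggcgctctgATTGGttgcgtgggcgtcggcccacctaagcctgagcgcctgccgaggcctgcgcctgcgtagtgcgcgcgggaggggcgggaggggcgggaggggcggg
ABCA1, chr9:104928238-104928405, minus strand: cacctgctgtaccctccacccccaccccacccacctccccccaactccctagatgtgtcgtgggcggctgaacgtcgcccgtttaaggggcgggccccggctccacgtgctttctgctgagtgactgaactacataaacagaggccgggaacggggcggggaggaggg
The MSMO1 stretch holds 3 NF-Y boxes, that of IDI1 holds 2, those of INSIG1, HMGCS1 and LSS hold 1 each, and that of ABCA1 holds 0. The whole windows, which run past the stretches shown, hold 4 for MSMO1, 2 each for IDI1 and HMGCS1, 1 each for INSIG1 and LSS and 0 for ABCA1. LSS thus carried the box with no called rise in RNA.

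Levels between genes were compared as TPM, the deposited share of a library's transcripts in 1000000 after division by length. With DMSO the highest were FDPS (231 TPM ± 6.2, SD, n = 3), EBP (201 TPM ± 4.5) and FDFT1 (149 TPM ± 3.9), each apart from the next by more than the sum of their SDs. Of the EBP TPM, 44.7% and 26.8% lay in the short processed transcripts EBP-201 and EBP-206. The protein-coding EBP-202 and EBP-205 held 15.1% and 12.2%. The lowest above 0 were ABCG1 (1.31 TPM ± 0.12) and ABCA1 (1.65 TPM ± 0.18). Of the 28 neighbouring pairs in this order, 16 lay within the sum of their SDs, among them the run from LSS through SCAP, SREBF2, MVD and CYP51A1 to NSDHL. INSIG1 stood at place 14 with DMSO, at place 5 with MS172 and at place 7 with PK9328. MSMO1 moved from place 21 to 15 and 18. LSS, at place 8 with DMSO, stood at 16 and 11.

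With MS172, most of the pathway was higher than with DMSO. Of the 28 genes tested, 19 rose, 2 fell and 7 did not pass the test, with a median log2 fold change of 0.25, while of all genes tested 17.9% rose and 17.2% fell, with a median of -0.02 (edgeR's quasi-likelihood test, Benjamini-Hochberg adjusted p under 0.05 over 13914 genes). INSIG1, MSMO1 and HMGCS1 rose by more than 2-fold, a change called in 0.352% of genes. The libraries of the groups did not overlap, higher with MS172, for 20 of 28 genes, against 22.0% of all genes, and lower for 2, against 22.7%. In bulk RNA a lower level in each cell and fewer cells that express a gene cannot be told apart. Among all genes the split of calls depends on how libraries are scaled. Higher calls made up 50.9% of calls with trimmed-mean (TMM) scaling, 33.5% with upper-quartile scaling, 18% with library totals only and 11.4% on deposited TPM, and the median of all genes was -0.13 with library totals and -0.14 with TPM. Relative to that lower median the pathway still stood higher. With library totals 14 of 28 rose and 3 fell (median 0.14), against 980 and 4474 of all 13914 genes. On TPM 12 of 28 rose and 3 fell (median 0.11), against 471 and 3674 of all 13914. The 12 genes that rose under all 18 alternatives were INSIG1, HMGCS1, MVK, MVD, IDI1, FDFT1, SQLE, CYP51A1, MSMO1, NSDHL, EBP and DHCR7.

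With PK9328, 12 of the 28 rose, 2 fell and 14 did not pass the test, with a median of 0.16, while of all genes tested 7.98% rose and 7.48% fell, with a median of 0.00. Of the 28, 0 rose by more than 2-fold, a change called in 0.165% of genes. Groups did not overlap, higher with PK9328, for 15 of 28 genes, against 15.9% of all genes, and lower for 2, against 15.4%. Every PK9328 library had shorter fragments than every other library, 249.8 to 263.2 bases against 274.4 to 293.1, so fragment length and PK9328 cannot be told apart. With estimated fragment length as a covariate, 4 of the 12 rose, and these were INSIG1, HMGCS1, IDI1 and MSMO1, while of all 13914 genes 109 rose. In that fit the median over the 28 was 0.17. CYP51A1 at 0.40, MVK at 0.41 and DHCR7 at 0.27 stayed near their values without the covariate, and none of the 3 was called. Other sizes moved more. HSD17B7 went from 0.406 to 0.263 and SCAP from -0.115 to -0.063, and neither was called with the covariate. With length-scaled TPM 9 of the 28 rose, and FDFT1 (0.21), SQLE (0.12) and DHCR7 (0.31) were not called. Calls fell among all genes too, where 531 of 14042 rose, against 1110 of 13914 in the main fit. Higher calls made up 51.6% of all calls with TMM scaling, 70.9% with library totals and 76.9% on TPM. Both comparisons use the same DMSO libraries, so the values below are given side by side.

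**Figure D1:**
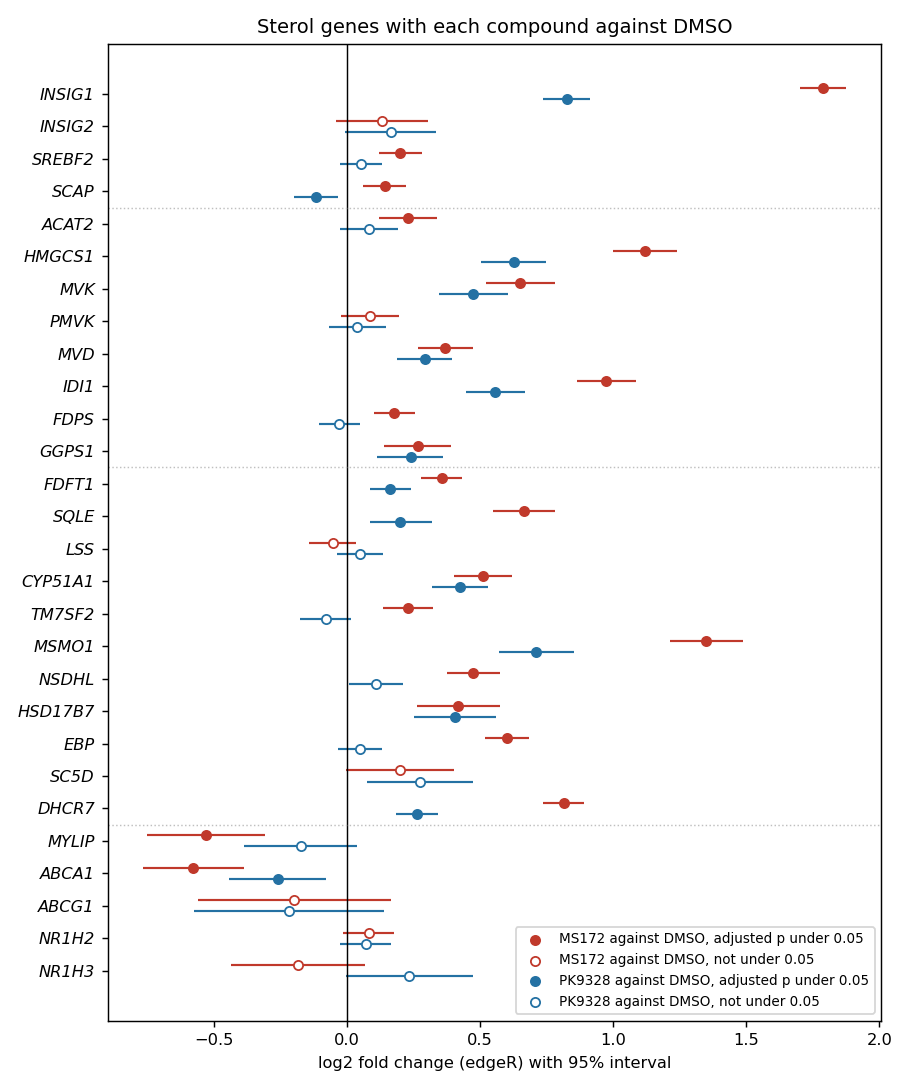
log2 fold change of each tested gene against DMSO (horizontal axis) for MS172 in red and PK9328 in blue, 3 libraries a group, with the 95% interval of the edgeR fit as a line. Filled points have an adjusted p under 0.05, and dotted lines part sensing genes, mevalonate enzymes, sterol enzymes and LXR genes, of which the last hold the lower calls except SCAP with PK9328.

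Among the sterol sensors, INSIG1 (chromosome 7, 155297776 to 155310235, GRCh38) had the highest fold change of all members with each compound. It stood at 50.8, 55.3 and 53.8 CPM in the DMSO libraries, at 190, 177 and 186 CPM with MS172 and at 93.1, 96.4 and 94.1 CPM with PK9328. The 3 groups did not overlap, with PK9328 between DMSO and MS172. The log2 fold change against DMSO was 1.79 ± 0.04 (SE) with MS172 (adjusted p = 2.5e-24) and 0.83 ± 0.04 with PK9328 (adjusted p = 6.15e-15). On the TPM scale most of it came from the transcript INSIG1-201, which went from 21.1 TPM ± 1.3 with DMSO to 67.6 TPM ± 3.4 and 38.1 TPM ± 1.7. INSIG1-201 held 74.1% of the gene's TPM with DMSO (71.7 to 76.7% over libraries), 82.1% with MS172 (80.2 to 85.6%) and 74.4% with PK9328 (71.7 to 78.6%).

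INSIG2, the second retention protein, stood at 13.5, 14.1 and 13.1 CPM with DMSO, at 13.9, 16.3 and 14.4 CPM with MS172 and at 14.5, 16.6 and 14.4 CPM with PK9328. It was called with neither compound, and the 95% intervals of its log2 fold change were -0.04 to 0.31 and -0.01 to 0.34. SREBF2, the gene of SREBP2, stood at 153, 166 and 149 CPM with DMSO, at 179, 177 and 181 CPM with MS172 and at 165, 159 and 161 CPM with PK9328. All MS172 libraries lay above all others, and SREBF2 rose by 0.20 ± 0.04 with MS172 (adjusted p = 0.000188), while the PK9328 value of 0.05 was not called. SCAP stood at 102, 100 and 99.8 CPM with DMSO, at 112, 114 and 108 CPM with MS172 and at 92.9, 96.5 and 89.6 CPM with PK9328. It rose by 0.14 ± 0.04 with MS172 (adjusted p = 0.00653) and fell by 0.12 ± 0.04 with PK9328 (adjusted p = 0.0498). On TPM, with no further scaling, SREBF2 (37.4 ± 3.8 and 38.7 ± 0.80) and SCAP (38.5 ± 1.4 and 38.7 ± 0.29) hardly differed between DMSO and MS172, and neither rise was called there or with library totals. That of SCAP was not called with upper-quartile scaling either. The fall of SCAP with PK9328 was called in 6 of 18 alternatives, with adjusted p from 0.0334 to 0.815. It was not called without DMSO replicate 1, 2 or 3 (log2 fold changes of -0.10, -0.12 and -0.12) or without PK9328 replicate 1 or 3 (-0.11 and -0.09).

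Of the 8 enzymes from acetyl-CoA to the isoprenoid diphosphates, 7 rose with MS172 and 5 with PK9328, with medians of 0.32 and 0.27. HMGCS1, which makes HMG-CoA for the mevalonate pathway, had the highest fold change of them (chromosome 5, 43289395 to 43313512). Its libraries read 25.9, 26.1 and 23.6 CPM with DMSO, 53.2, 56.3 and 55.3 CPM with MS172 and 42.0, 36.0 and 39.0 CPM with PK9328. The 3 groups were apart, and HMGCS1 rose by 1.12 ± 0.06 with MS172 (adjusted p = 1.87e-15) and by 0.63 ± 0.06 with PK9328 (adjusted p = 6.22e-09). The transcript HMGCS1-202 held 60.1%, 62.4% and 57.5% of the gene's TPM in the 3 groups, and HMGCS1-201 most of the rest.

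IDI1, the isomerase of the isoprenoid building blocks, stood at 32.5, 33.8 and 34.0 CPM with DMSO, at 64.9, 66.5 and 65.7 CPM with MS172 and at 49.8, 52.7 and 45.0 CPM with PK9328. No groups overlapped, and the log2 fold changes were 0.97 ± 0.05 (adjusted p = 7.05e-15) and 0.56 ± 0.06 (adjusted p = 9.69e-09). The protein-coding transcript IDI1-201 went from 17.8 TPM ± 1.1 to 32.7 TPM ± 0.78 with MS172, while the processed transcript IDI1-205 was at 4.41 TPM ± 0.61 and 4.84 TPM ± 1.4. With PK9328 both were higher than with DMSO, IDI1-201 at 26.7 TPM ± 2.4 and IDI1-205 at 7.08 TPM ± 1.4, the latter with no overlap between the groups. MVK, mevalonate kinase, stood at 21.5, 23.9 and 24.4 CPM with DMSO, at 36.3, 38.6 and 34.9 CPM with MS172 and at 30.1, 33.5 and 33.4 CPM with PK9328. It rose by 0.65 ± 0.06 and 0.47 ± 0.06 (adjusted p = 2.6e-09 and 3.17e-06). The transcript MVK-203, annotated as subject to nonsense-mediated decay, held 15.4% of the MVK TPM with DMSO (13.1 to 17.9%), 7.1% with MS172 (3.4 to 10.0%) and 9.6% with PK9328 (7.0 to 11.9%). The shares with DMSO lay above those with either compound. MVK overlaps MMAB on the opposite strand by 620 bases, and without strand the reads of that stretch cannot be told apart.

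MVD, the decarboxylase that follows, stood at 36.6, 35.5 and 36.8 CPM with DMSO, at 46.7, 46.2 and 48.0 CPM with MS172 and at 42.7, 44.6 and 46.0 CPM with PK9328. Both treated groups lay above DMSO, and MVD rose by 0.37 ± 0.05 and 0.29 ± 0.05 (adjusted p = 1.49e-06 and 0.000132). The remaining enzymes of this stretch moved less. ACAT2, which joins acetyl-CoA units, rose by 0.23 with MS172, FDPS, farnesyl diphosphate synthase, by 0.18 and GGPS1, geranylgeranyl diphosphate synthase, by 0.27. Of these, only GGPS1 rose with PK9328, by 0.24, and without PK9328 replicate 2 that was 0.18 and not called. PMVK, phosphomevalonate kinase, was called with neither compound (0.09 and 0.04). The rises of ACAT2, FDPS and GGPS1 with MS172 were not called on TPM or with library totals, and FDPS was at 231 TPM with both DMSO and MS172. ACAT2 overlaps the far more abundant TCP1 on the opposite strand by 558 bases, and GGPS1 overlaps ARID4B there by 870 bases and TBCE on its own strand by 15963, so their values are uncertain to that extent.

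Of the 11 enzymes from squalene to cholesterol, 9 rose with MS172 and 6 with PK9328, with medians of 0.48 and 0.20. MSMO1, the oxidase that begins removal of a pair of methyl groups from the sterol ring, had the highest fold change of them (chromosome 4, 165327623 to 165343160). Its levels were 22.8, 24.2 and 19.6 CPM with DMSO, 58.4, 60.2 and 51.9 CPM with MS172 and 36.5, 37.5 and 35.4 CPM with PK9328. The groups stood in the same order as for INSIG1 with no overlap, and MSMO1 rose by 1.35 ± 0.07 (adjusted p = 2.85e-14) and 0.71 ± 0.07 (adjusted p = 4.61e-08). The other 2 enzymes that work with it on the methyl groups are NSDHL and HSD17B7, and these parted from each other. NSDHL rose by 0.48 with MS172 and was at 0.11, not called, with PK9328. HSD17B7 stood at 14.3, 12.9 and 13.4 CPM with DMSO, at 18.9, 17.2 and 18.2 CPM with MS172 and at 17.2, 17.6 and 18.9 CPM with PK9328. Its treated groups overlapped each other and not DMSO, with log2 fold changes of 0.42 ± 0.08 and 0.41 ± 0.08 (adjusted p = 8.52e-05 and 0.000327). On deposited TPM the MS172 value of HSD17B7 was 0.16 and was not called.

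DHCR7, the reductase of the last step of the pathway, stood at 141, 131 and 136 CPM with DMSO, at 236, 243 and 238 CPM with MS172 and at 156, 166 and 169 CPM with PK9328 (chromosome 11, 71428193 to 71452868). It rose by 0.81 ± 0.04 with MS172 (adjusted p = 1.17e-16) and by 0.26 ± 0.04 with PK9328 (adjusted p = 1.33e-05). An antisense gene of DHCR7 had a mean of 101.2 reads against 4596.9. EBP, the sterol isomerase, stood at 113, 107 and 112 CPM with DMSO, at 174, 171 and 160 CPM with MS172 and at 112, 113 and 119 CPM with PK9328. DMSO and PK9328 overlapped, MS172 lay above both, and EBP rose by 0.60 ± 0.04 with MS172 (adjusted p = 5.38e-13) while its PK9328 value was 0.05 (95% interval -0.03 to 0.13). SQLE, squalene epoxidase, which makes the first oxygenated product, stood at 31.9, 32.5 and 33.7 CPM with DMSO, at 53.5, 54.3 and 47.8 CPM with MS172 and at 37.5, 39.4 and 35.9 CPM with PK9328. It rose by 0.67 ± 0.06 and 0.20 ± 0.06 (adjusted p = 1.37e-10 and 0.0147), the second not called without DMSO replicate 1 (0.18) or without PK9328 replicate 2 (0.17). CYP51A1, lanosterol demethylase, stood at 80.7, 95.3 and 87.1 CPM with DMSO, at 129, 127 and 119 CPM with MS172 and at 117, 124 and 113 CPM with PK9328. Its rises of 0.51 ± 0.05 and 0.42 ± 0.05 were of like size (adjusted p = 1.24e-07 and 5.78e-06).

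FDFT1, TM7SF2, SC5D and LSS had smaller values. FDFT1, squalene synthase, rose by 0.36 with MS172 and by 0.16 with PK9328, and TM7SF2, a sterol reductase, rose by 0.23 with MS172 and was at -0.08 with PK9328. On TPM, TM7SF2 was at 69.7 ± 0.31 with DMSO and 70.5 ± 2.4 with MS172, and its rise was not called there or with length-scaled TPM. SC5D, the sterol desaturase before DHCR7, was called with neither compound (0.20 and 0.28, adjusted p = 0.121 and 0.0525). LSS, which closes the sterol ring system, was the one enzyme of the 19 below DMSO with MS172, at -0.05 (95% interval -0.14 to 0.03), in 104 to 116 CPM against 111 to 122 CPM. With MS172, LSS was called lower in 3 of the 18 alternatives, length-scaled TPM, library totals and deposited TPM, with values as low as -0.33. On TPM LSS went from 39.5 ± 3.1 with DMSO to 31.1 ± 1.5 with MS172 and 42.8 ± 2.2 with PK9328. Its short processed transcript LSS-207 held 12.6% of LSS TPM with DMSO (11.1 to 14.7%), 3.4% with MS172 (0.0 to 7.0%) and 8.0% with PK9328 (0.0 to 14.3%).

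**Figure D2:**
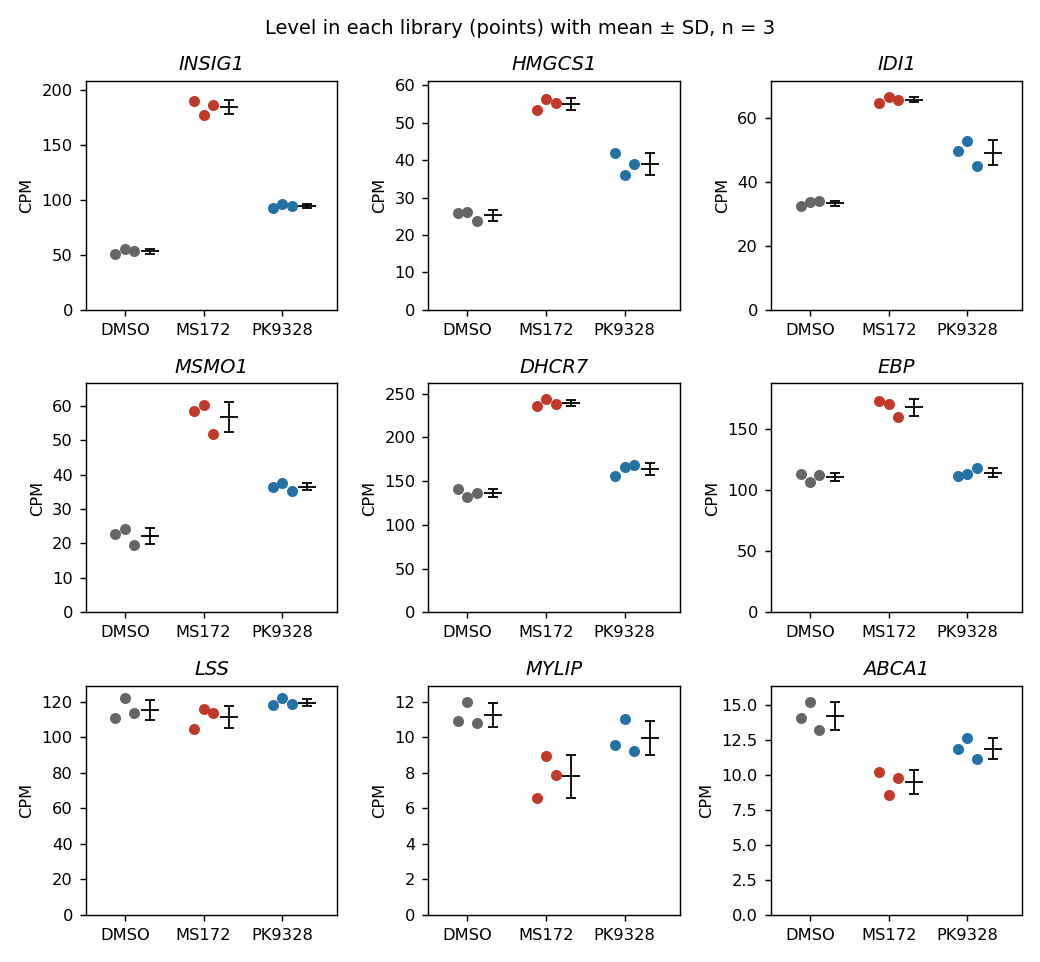
CPM of 9 genes in each library (vertical axis from 0, a point per library) with the mean ± SD of 3 libraries beside each group. INSIG1, HMGCS1, IDI1 and MSMO1 stand highest with MS172 and between with PK9328, EBP is higher with MS172 alone, and MYLIP and ABCA1 are lowest with MS172.

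The 5 LXR genes moved the other way or were not called. ABCA1, which exports cholesterol to apolipoproteins (chromosome 9, 104781002 to 104928237), stood at 14.1, 15.3 and 13.2 CPM with DMSO, at 10.2, 8.57 and 9.76 CPM with MS172 and at 11.9, 12.7 and 11.1 CPM with PK9328. The order of the groups was the reverse of that for INSIG1, with no overlap. ABCA1 fell by 0.58 ± 0.09 with MS172 (adjusted p = 1.56e-05), and did so under all 18 alternatives. With PK9328 it fell by 0.26 ± 0.09 (adjusted p = 0.046), which was called in 6 of 18 alternatives, with adjusted p from 0.0393 to 0.608. That call was absent without DMSO replicate 1 or 2 (-0.26 and -0.20) and without PK9328 replicate 1, 2 or 3 (-0.26, -0.31 and -0.21). MYLIP stood at 10.9, 12 and 10.8 CPM with DMSO, at 6.57, 8.96 and 7.88 CPM with MS172 and at 9.58, 11.0 and 9.23 CPM with PK9328. MS172 lay below both other groups, which overlapped, and MYLIP fell by 0.53 ± 0.11 with MS172 (adjusted p = 0.000338), under all 18 alternatives, while its value with PK9328, -0.17, was not called.

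Both annotated transcripts of MYLIP were lower with MS172. MYLIP-201 went from 3.57 TPM ± 0.28 to 2.60 TPM ± 0.43, and MYLIP-202 from 3.16 TPM ± 0.75 to 1.30 TPM ± 0.16. The share of MYLIP-202 was 39.6 to 51.5% with DMSO, 30.4 to 35.7% with MS172 and 45.2 to 52.1% with PK9328. ABCG1, which exports cholesterol to lipoprotein particles, stood at 3.22, 2.57 and 3.26 CPM with DMSO, at 2.65, 2.66 and 2.54 CPM with MS172 and at 2.79, 2.22 and 2.75 CPM with PK9328. Its groups overlapped, and the intervals of its log2 fold change, -0.56 to 0.16 and -0.57 to 0.14, would hold changes as large as those of ABCA1 with PK9328. NR1H2, the gene of LXR-beta, stood at 67.9, 64.3 and 64.3 CPM with DMSO, at 70.6, 71.1 and 66.3 CPM with MS172 and at 66.3, 67.5 and 72.6 CPM with PK9328, and was called with neither (0.08 and 0.07). NR1H3, the gene of LXR-alpha, stood at 7.98, 6.21 and 6.97 CPM with DMSO, at 6.98, 5.42 and 6.17 CPM with MS172 and at 7.56, 8.51 and 8.79 CPM with PK9328. Its values of -0.18 and 0.24 were not called, and it overlaps the more abundant ACP2 on the opposite strand by 607 bases.

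The compounds were then compared with each other directly, at the single dose and time the protocol gives. Of the 28 genes, 15 were higher with MS172 than with PK9328, 4 were lower and 9 did not pass the test, while 23.3% of all genes were higher and 24.4% lower. Groups did not overlap, higher with MS172, for 16 of 28 genes against 26.3% of all genes, and lower for 4 against 29.1%. The medians were 0.15 for the 28 and -0.03 for all genes. On the other scales the split was different. Of all calls 48.8% were higher with TMM, 36.9% with upper-quartile scaling, 18.5% with library totals and 11.6% on TPM, with the median of all genes at -0.17 and -0.18 under the last 2. With library totals, 10 of the 28 were higher and 5 lower, against 1302 and 5747 of all 13914 genes. On TPM, 6 of the 28 were higher and 10 lower, against 735 and 5611 of all 13914. INSIG1, HMGCS1, SQLE, MSMO1, NSDHL and EBP were higher with MS172 under all 18 alternatives, and FDPS, TM7SF2 and DHCR7 under 16 of them, those other than library totals and deposited TPM, and TM7SF2 and DHCR7 also with library totals.

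INSIG1 was higher with MS172 than with PK9328 by 0.96 ± 0.04 (adjusted p = 4.4e-18), MSMO1 by 0.64 ± 0.06 (adjusted p = 8.58e-09) and HMGCS1 by 0.50 ± 0.06 (adjusted p = 2.08e-08). EBP differed by 0.55 ± 0.04 (adjusted p = 2.04e-12), DHCR7 by 0.55 ± 0.04 (adjusted p = 6.41e-13), SQLE by 0.46 ± 0.05 and NSDHL by 0.37 ± 0.05. Late enzymes thus stood beside HMGCS1 in the size of this difference. IDI1 differed by 0.42 ± 0.05, a call not made with the fragment length covariate or on TPM.

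Another set of enzymes that rose with each compound showed no called difference between them. CYP51A1 differed by 0.09 (95% interval -0.02 to 0.19), MVD by 0.08 (-0.02 to 0.18), GGPS1 by 0.03 (-0.10 to 0.15) and HSD17B7 by 0.01 (-0.14 to 0.17). Differences up to the ends of these intervals cannot be told from 0 here. On deposited TPM GGPS1 and HSD17B7 were called lower with MS172, at -0.23 and -0.29. Small differences in SREBF2 (0.15), ACAT2 (0.15), MVK (0.18) and FDFT1 (0.19) passed the test, and their sign turned on TPM (-0.05, -0.17, -0.01 and -0.09). ACAT2 was not called without MS172 replicate 1 (0.11) or PK9328 replicate 1 (0.11), nor MVK without MS172 replicate 2 (0.14) or PK9328 replicate 1 (0.13).

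SCAP was higher with MS172 by 0.26 ± 0.04 (adjusted p = 4.67e-06), and its group values did not overlap, though it was not called with the fragment length covariate (0.20) or on TPM (0.11). ABCA1, MYLIP and NR1H3 were lower with MS172 than with PK9328, by -0.32 ± 0.09, -0.36 ± 0.11 and -0.42 ± 0.12 (adjusted p = 0.00628, 0.0087 and 0.0049). MYLIP was not called without MS172 replicate 1 (-0.24) or without PK9328 replicate 2 (-0.27). ABCA1 and NR1H3 were not called with the fragment length covariate, and NR1H3 not with length-scaled TPM. LSS was lower by -0.10 (adjusted p = 0.0498), which was called in 10 of 18 alternatives, with adjusted p from 8.35e-05 to 0.331. It was not called without MS172 replicate 1 (-0.06) or without PK9328 replicate 1, 2 or 3 (-0.11, -0.09 and -0.11).

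**Figure D3:**
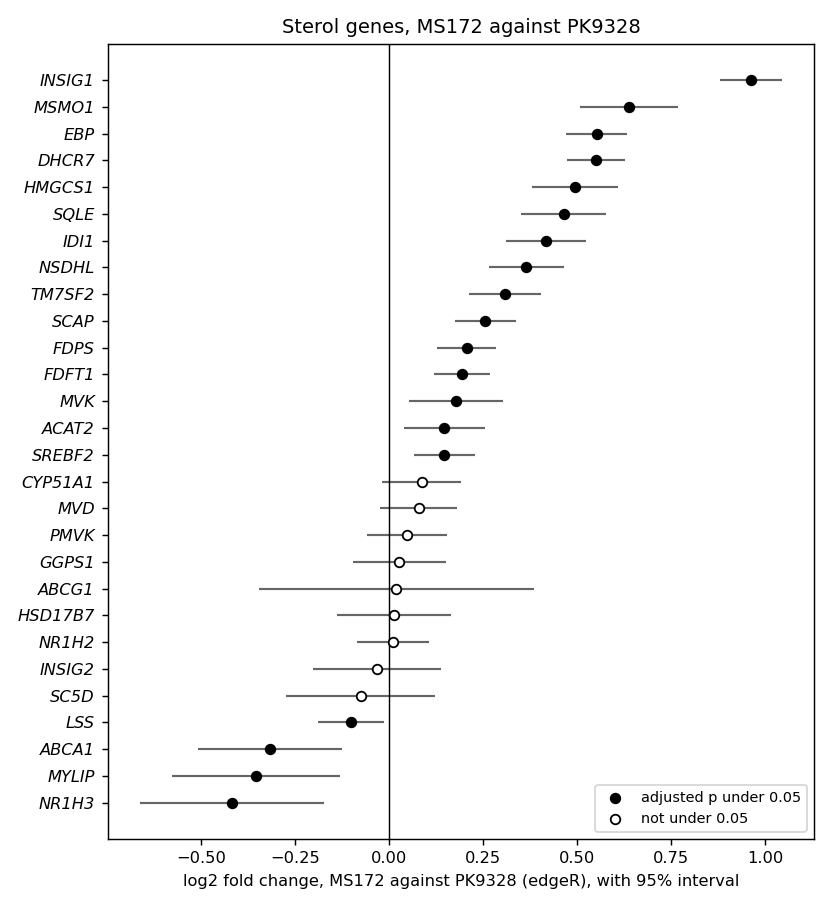
log2 fold change of MS172 against PK9328 (horizontal axis) for the 28 tested genes, 3 libraries a group, in order of size, with the 95% interval of the edgeR fit. Filled points have an adjusted p under 0.05, from INSIG1 at 0.96 to NR1H3 at -0.42.

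Neighbouring pathways were counted in the same fit, where 17.9% of all genes rose and 17.2% fell with MS172, and 7.98% rose and 7.48% fell with PK9328. Of 13 genes of SREBP processing and turnover, 4 rose and 1 fell with MS172 (median 0.03), and 0 rose and 2 fell with PK9328 (median -0.06). RNF145, a ubiquitin ligase of the endoplasmic reticulum that acts on sterol control, stood apart in this list. It was at 20.4 to 24.4 CPM with DMSO, at 34.1 to 37.5 CPM with MS172 and at 16.8 to 18.7 CPM with PK9328. RNF145 rose by 0.70 ± 0.07 with MS172 (adjusted p = 1.82e-09) and fell by 0.30 ± 0.07 with PK9328 (adjusted p = 0.00336), and the direct difference was 1.01 ± 0.07 (adjusted p = 5.29e-13). TMEM97 and MARCH6, which bear on sterol handling and turnover of sterol enzymes, rose by 0.18 and 0.12 with MS172.

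Of 12 genes of the isoprenoid branch, 2 rose and 2 fell with MS172, and 1 rose and 1 fell with PK9328, with medians of 0.01 and -0.04, so the counts with MS172 lie near those shares of all genes. PGGT1B, a subunit of geranylgeranyl transferase, fell by 0.40 with MS172, and DHDDS, of dolichol synthesis, fell by 0.24 with MS172 and rose by 0.25 with PK9328. ICMT, a methyltransferase of prenylated proteins, fell by 0.19 with PK9328, and ZMPSTE24, a protease that acts on them, rose by 0.15 with MS172. Of 15 genes of sterol uptake, transport and storage, 7 rose and 0 fell with MS172 (median 0.07), and 1 rose and 1 fell with PK9328 (median 0.00). With MS172 NPC2, which hands on lysosomal cholesterol, rose by 0.24, the sterol carrier OSBP by 0.22 and the lipoprotein receptor SCARB1 by 0.19. With PK9328 OSBP rose by 0.13 and LIPA, the lysosomal lipase, fell by 0.17.

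Of 7 partners and targets of the liver X receptors, 4 rose and 0 fell with MS172 (median 0.14), and 0 rose and 1 fell with PK9328 (median -0.05). SREBF1, an LXR target and the gene of SREBP1, rose by 0.19 with MS172, so it did not go the way of ABCA1 and MYLIP. The corepressor NCOR1 rose by 0.14 with MS172, and RXRA, the partner of the LXRs, fell by 0.12 with PK9328. Of 10 tested genes of fatty acid synthesis, the SREBP1 side of the same system, 8 rose and 0 fell with MS172 (median 0.19), and 2 rose and 0 fell with PK9328 (median 0.04). FASN, fatty acid synthase, was at 546 CPM ± 17 with DMSO and 858 CPM ± 33 with MS172 and rose by 0.65 ± 0.04 (adjusted p = 2.02e-14), while its PK9328 value was 0.09 and not called. The desaturase SCD rose by 0.37 and 0.13, ACSL3, which activates fatty acids, by 0.31 and 0.17, and ACACA, acetyl-CoA carboxylase, by 0.20 with MS172. The 19 enzymes of cholesterol synthesis had 16 higher with MS172 (median 0.42) and 11 with PK9328 (median 0.24), and the difference between these lists and the fatty acid list was not tested.

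**Figure D4:**
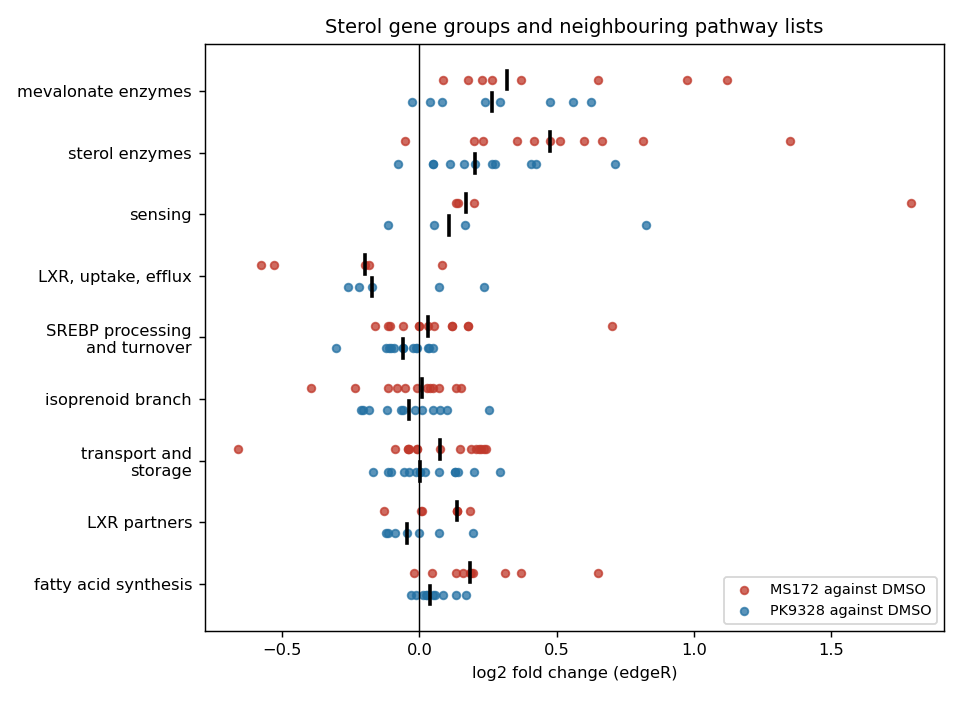
log2 fold change against DMSO (horizontal axis) of each tested gene (points) by role or neighbouring list, for MS172 in red and PK9328 in blue, 3 libraries a group, with the list's median as a black bar. The medians run from 0.48 for the sterol enzymes to -0.20 for the LXR genes with MS172.

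Markers of cell types were counted beside all genes, of which 17.9% rose with MS172 and 7.48% fell with PK9328. The lists are short, so a count of 1 or 2 genes is not read as a result. Of the 5 tested ductal and epithelial markers, 4 rose with MS172 and 2 fell with PK9328, and the sum over all 8 was 1865 to 2019 CPM with DMSO, 2303 to 2433 CPM with MS172 and 1761 to 1854 CPM with PK9328. Of the 4 tested mesenchymal markers, 1 rose with MS172 and 2 fell with PK9328, and the sum over all 5 was 11690 to 11870, 12310 to 12840 and 9881 to 10150 CPM. Their part in the sterol results was not tested. Hepatocyte markers, of a cell with high sterol synthesis, summed to 0.626 to 1.49 CPM over all libraries, with ALB at most at 0.0408 CPM and TTR at 0. Of the macrophage markers, cells rich in LXR-driven export, PTPRC was at most 0.11 CPM and the sum of 3 was 17.8 to 24.1 CPM, nearly all of it CD68.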

How the data were processed

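RNA from 9 libraries, 3 each for DMSO, MS172 and PK9328 by their titles, was analysed from deposited transcript tables. Per the file headers these hold length, effective length, TPM (scaled to transcript length and library by the authors) and estimated counts of reads for 197653 transcripts. FastQC 0.11.8 and hg38 are listed in the submitters' processing notes. The quantifier, its index and its strand setting were not given in the sources used here. Estimated counts of the 193348 transcripts matched to GENCODE 29 (GRCh38) were summed per gene and rounded, and 0.356 to 0.382% of reads were unmatched. CPM are these counts in 1000000 reads after TMM scaling. Genes were filtered with filterByExpr and tested with edgeR 4.0.16 (R 4.3.3), robust quasi-likelihood, over all 9 libraries in 1 fit with 6 residual degrees of freedom, without a replicate block. Benjamini-Hochberg adjustment covered 13914 genes in each of 3 comparisons, at 0.05, and the code was tested on simulated data. Alternatives were upper-quartile and RLE scaling, DESeq2 1.42.0, limma 3.58.1 voom, other filters, length-scaled TPM, a fragment length covariate, the 6 libraries compared, and each library left out. Library totals and limma on log2(TPM + 1) were added after seeing the data. Transcript shares and motifs are descriptions. All 29 genes are named, with values in every library for the 8 largest changes of either DMSO comparison, the sensors and the LXR genes, and at most 4 genes of each other list, by smallest p, less a few that are not reported here. The genes and lists were chosen with earlier results of these data known.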

Additional observations from a re-analysis of the deposited data

How the results depend on the processing

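Over 1512 member values under alternatives, no value against DMSO that was called in either setting changed sign. Values called in at least 1 setting that changed sign were in the comparison of MS172 with PK9328 on the added scales. Of these, only ACAT2 was called in both settings. On deposited TPM these were SREBF2 -0.046, ACAT2 -0.165, MVK -0.009, PMVK -0.119, GGPS1 -0.23, FDFT1 -0.085, HSD17B7 -0.29 and NR1H2 -0.20, the median over members was -0.076, and with library totals NR1H2 was -0.13. A further 53 sign changes, in 23 results, were among values called in neither setting, at most 0.29 in size. Leaving out each library gave 19 higher and 2 lower members for MS172 against DMSO (medians 0.23 to 0.28), 10 to 12 higher and 0 to 1 lower for PK9328 against DMSO (0.14 to 0.19), and 13 to 15 higher and 2 to 4 lower for MS172 against PK9328 (0.12 to 0.16).

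The 2 members lower with PK9328 became 1 with DESeq2, voom, length-scaled TPM or only the 6 libraries compared, and 0 with no filter, the fragment length covariate, library totals or deposited TPM. With the covariate the 12 higher became 4, at a median of 0.17, and for MS172 against PK9328 the 15 higher became 10 and the 4 lower 1, at a median of 0.18. Among all 13914 genes, the covariate left 109 higher for PK9328 against DMSO, and 1364 higher and 1098 lower for MS172 against PK9328. With length-scaled TPM the 12 and 15 higher became 9 and 12. Among all genes 1110 and 3240 higher of 13914 became 531 and 2693 of 14042. With library totals the medians were 0.14 for MS172 against DMSO and 0.006 for MS172 against PK9328. With deposited TPM 12 members were higher and 3 lower with MS172 than with DMSO (median 0.11), beside 471 and 3674 of all 13914 genes. Against PK9328, 6 members were higher and 10 lower with MS172, beside 735 and 5611 of all 13914 genes. The cause of these differences was not tested.

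The labels state no pairing of samples by replicate number, and the correlations below cannot exclude one. Deviations of same-numbered samples correlated at -0.06 to 0.02 over 9 pairs, 0 of them above 0.1, and those of other pairs at -0.05 to 0.08. With the replicate block 0 members were lower with PK9328 (SCAP -0.12 and ABCA1 -0.26 lost their calls), and the counts of higher members were 19, 12 and 15. At low depth intervals are wide, as for ABCG1 at 2.22 to 3.26 CPM.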
